A study of Mus musculus with 7 samples.

Results

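The 102 genes described here encode the machinery of oxidative phosphorylation. They were taken from 55385 gene IDs by symbol: protein-coding genes whose names begin with Nduf, Sdh, Uqcr, Cox, Atp5 or the mitochondrial prefixes mt-Nd, mt-Co, mt-Cytb and mt-Atp, in the ranges of letters and digits that mark the complexes, with at least 10 reads in at least 3 libraries. The symbol rule matched 107 genes, and 5 did not reach the read limit: mt-Nd4l, Cox7b2, Cox8b, Cox8c and a second ID of Atp5o. Of the 102, 90 are encoded in the nucleus and 12 in mitochondrial DNA. The 90 comprise 79 structural subunits, of which 36 belong to complex I, 4 to complex II, 8 to complex III, 15 to complex IV and 16 to complex V. The remaining 11 carry matching names without being structural subunits of a complex: the assembly factors Ndufaf1 to Ndufaf8, the supercomplex factor Cox7a2l, the ATP synthase coupling protein Atp5s and Ndufa4l2, a relative of Ndufa4.

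The libraries came from tumour-associated macrophages sorted out of gliomas grown in the brains of C57BL/6 mice from the isogenic line QPP7. The number of cells injected was 100000 for every library. In 3 libraries the tumour cells carried shChi3l1, a hairpin against the secreted chitinase-like protein Chi3l1, and in 4 they carried the control vector hairpin shSC. Macrophages, whose RNA was read, carried no hairpin themselves, all mice had the same strain, and neither the age of the mice nor the number of animals or hairpin clones behind a library is given in the sources used here. Libraries were built with kits for low input (10 ng of RNA, 1 ng of cDNA) that keep no mark of strand, so reads from overlapping genes on opposite strands cannot be told apart. No label states that the libraries came from separate mice, so the p-values below measure only the spread between these libraries.

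The inner mitochondrial membrane holds the respiratory chain. Complex I takes electrons from NADH and complex II from succinate, complex III passes them from ubiquinol to cytochrome c, and complex IV hands them to oxygen. Complexes I, III and IV pump protons, and complex V, the ATP synthase, uses their return to make ATP. All complexes but complex II combine proteins made from nuclear genes with a core made from mitochondrial DNA, whose genes are transcribed as long polycistronic RNAs inside the organelle. In macrophages, oxidative phosphorylation is a feature often set against glycolysis when states of activation are compared.

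Sequence decides which of these genes can be read without ambiguity. A stretch of chromosome 1 on the minus strand (mm10, chr1:24611535-24616197) carries a nuclear copy of part of the mitochondrial genome, annotated as the pseudogenes Gm29216, Gm28661, Gm10925, Gm28437, Gm28438, Gm10222 and Gm28439. The starts of mt-Co2 and mt-Co3, core subunits of complex IV, are shown with those of their copies because no letter separates them over the 681 and 783 bases aligned.

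mt-Co2: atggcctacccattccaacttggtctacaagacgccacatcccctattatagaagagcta
Gm28661: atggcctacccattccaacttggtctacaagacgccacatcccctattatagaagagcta
mt-Co3: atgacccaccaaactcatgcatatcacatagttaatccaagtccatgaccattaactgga
Gm28437: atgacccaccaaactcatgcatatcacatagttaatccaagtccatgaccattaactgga

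The start of mt-Nd3, a core subunit of complex I, differs from its copy by T3C (the mitochondrial gene's base first, positions counted from 1 at its first base), in capitals below, and all other bases of the 345 aligned are the same.

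mt-Nd3: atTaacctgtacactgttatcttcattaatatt
Gm28438: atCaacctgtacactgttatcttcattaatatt

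The copies of mt-Atp6, mt-Nd4l and, over 876 bases, mt-Nd4 are also identical, and that of mt-Co1 differs by A1066T. Every window of 50 bases in mt-Co2 occurred in another annotated transcript, as did 99.9% of those in mt-Co3, 99.5% in mt-Atp6, 98.0% in mt-Nd3, 62.2% in mt-Nd4 and 51.1% in mt-Co1. No window of mt-Nd1, mt-Cytb, mt-Nd6 or mt-Atp8 did, but only annotated transcripts were searched. mt-Atp8 lies between mt-Co2 and mt-Atp6 on the mitochondrial map, and the copies of both lie in this stretch of chromosome 1. The lack of shared windows therefore does not show that mt-Atp8 has no copy there. In the deposited counts some reads were on the gene and some on the copy. Of the reads on mt-Co3 and Gm28437 together, 58.7% to 83.5% were on the chromosome 1 copy. Of those on mt-Co2 and Gm28661, 27.8% to 52.0% were. The levels of mt-Co2, mt-Co3, mt-Atp6 and mt-Nd3 in these files therefore hold only part of the reads that fit their sequence, and they are uncertain. Adding the copy did not bring them near mt-Co1: in shChi3l1 1 mt-Co3 had 1205 reads and Gm28437 6101, against 58293 on mt-Co1. Over the libraries, reads on all these copies equalled 1.22% to 4.80% of those on the 12 mitochondrially encoded genes. Whether reads that fit both places were left out of the counts was not tested. Among the nuclear genes, 15 had over 25% of their windows in another transcript, led by Atp5g2 with 87.4% and Atp5l with 84.8%, subunits of the ATP synthase. In 4 genes (Ndufaf2, Atp5o, Ndufb6 and Ndufa13) another gene overlapped more than 25% of the exon bases.

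Promoters of the nuclear genes are shown as background, and their part in the variation between libraries was not tested. RefSeq promoter sequences (GRCm38.p6, 250 bases before to 50 after the start) were at hand for 72 of the 90 nuclear genes. The 3 below, of Cox6a1 in complex IV (chr5:115348909-115349208, minus strand), Sdhb in complex II (chr4:140961021-140961320, plus strand) and Uqcrc1 in complex III (chr9:108936398-108936697, plus strand), carry matches to the core of the site bound by nuclear respiratory factor 1. They were chosen after their sequences were seen. Capitals mark GCATGCG and CCGGAAG on either strand, and matches on both strands run together as CGCATGCG.

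Cox6a1: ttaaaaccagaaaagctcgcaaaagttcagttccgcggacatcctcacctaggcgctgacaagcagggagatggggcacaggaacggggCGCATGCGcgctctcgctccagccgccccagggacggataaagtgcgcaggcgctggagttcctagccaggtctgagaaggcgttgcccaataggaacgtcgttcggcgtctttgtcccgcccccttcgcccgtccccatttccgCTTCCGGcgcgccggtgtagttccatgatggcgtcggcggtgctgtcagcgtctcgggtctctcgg
Sdhb: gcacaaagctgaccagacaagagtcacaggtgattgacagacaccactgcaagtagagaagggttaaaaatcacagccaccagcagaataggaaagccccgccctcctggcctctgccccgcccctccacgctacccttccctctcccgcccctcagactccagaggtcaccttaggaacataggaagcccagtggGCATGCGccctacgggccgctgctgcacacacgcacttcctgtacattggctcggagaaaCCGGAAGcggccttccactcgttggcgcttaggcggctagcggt
Uqcrc1: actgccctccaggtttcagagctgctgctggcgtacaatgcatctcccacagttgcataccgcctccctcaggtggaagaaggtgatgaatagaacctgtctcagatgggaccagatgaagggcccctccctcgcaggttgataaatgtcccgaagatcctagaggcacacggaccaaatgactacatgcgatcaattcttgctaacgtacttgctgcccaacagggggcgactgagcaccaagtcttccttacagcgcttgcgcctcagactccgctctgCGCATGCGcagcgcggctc

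That core, GCATGCG, was found in 16.7% of the 72 promoters and in 4.49% of all 17491 promoters of the same length. The ETS core CCGGAAG, the kind of site bound by GABP, was found in 23.6% and 11.9%, and AAGATGG, a core of YY1 sites, in 13.9% and 6.35%. CCAAT was found in 44.4% and 39.2%, GGGCGG in 44.4% and 46.3%, and TATAAA in 6.94% and 13.3%. Both strands were searched, and a match describes letters and not a bound factor. The 72 promoters had 57.8% G and C and all promoters 55.9%, and the shares were not matched for this or for expression.

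Reads assigned to genes numbered from 19169129 to 36502664 per library. Summed over 15 macrophage markers, levels were 47440 to 66664 CPM (reads scaled to a common library total by the TMM method) in the shChi3l1 libraries and 35832 to 47470 CPM in the shSC libraries, and no marker was at 0 in any library. Chi3l1 itself, listed as Chil1, had 7 to 31 reads per library, and since the hairpin acted in the tumour cells these reads do not check the labels. Microglial markers were highest in shChi3l1 3, at 5269 CPM in sum against 1130 to 2543 CPM elsewhere, and tumour and glial markers in shSC 4, at 358 CPM against 51.6 to 130 CPM elsewhere. In the comparison of hairpins across 15448 genes, edgeR called 0 genes (0%) at an adjusted p under 0.05, and 229 genes (1.48%) had an unadjusted p under 0.05. DESeq2 called 1 gene (0.00651%) and had 350 (2.28%) with an unadjusted p under 0.05. The biological coefficient of variation between libraries of a hairpin was 58.35%.

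The nuclear genes as a whole were highest in the library numbered 1 of each hairpin. Their share of all assigned reads was 3.24%, 1.22% and 1.46% in shChi3l1 1 to 3. It was 3.34% in shSC 1, 1.49% in shSC 2, 1.90% in shSC 3 and 2.45% in shSC 4. The 2 libraries numbered 1 were close to each other and above the rest, and the groups overlapped. The share averaged 1.97% ± 1.10 (SD, n = 3) with shChi3l1 and 2.30% ± 0.80 (SD, n = 4) with shSC. As summed level, the same genes reached 40243 CPM in shChi3l1 1 and 36790 CPM in shSC 1, against 13268 to 20198 CPM in the other 5 libraries. In bulk RNA of sorted cells, fewer cells of a type and less RNA per cell cannot be told apart.

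The mitochondrially encoded genes followed another order. They took 0.519% of reads in shChi3l1 1, 0.257% in shChi3l1 2 and 0.583% in shChi3l1 3. They took 0.270% in shSC 1, 1.12% in shSC 2, 0.660% in shSC 3 and 0.535% in shSC 4. The highest library, shSC 2, and the second lowest, shSC 1, carried the same hairpin, and the groups overlapped again. The share averaged 0.453% ± 0.173 (SD, n = 3) with shChi3l1 and 0.646% ± 0.355 (SD, n = 4) with shSC. It is not the whole mitochondrially encoded part of the reads. The counts of mt-Co2, mt-Co3, mt-Atp6 and mt-Nd3 are incomplete, and mt-Nd4l is not in the sum.

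**Figure D1:**
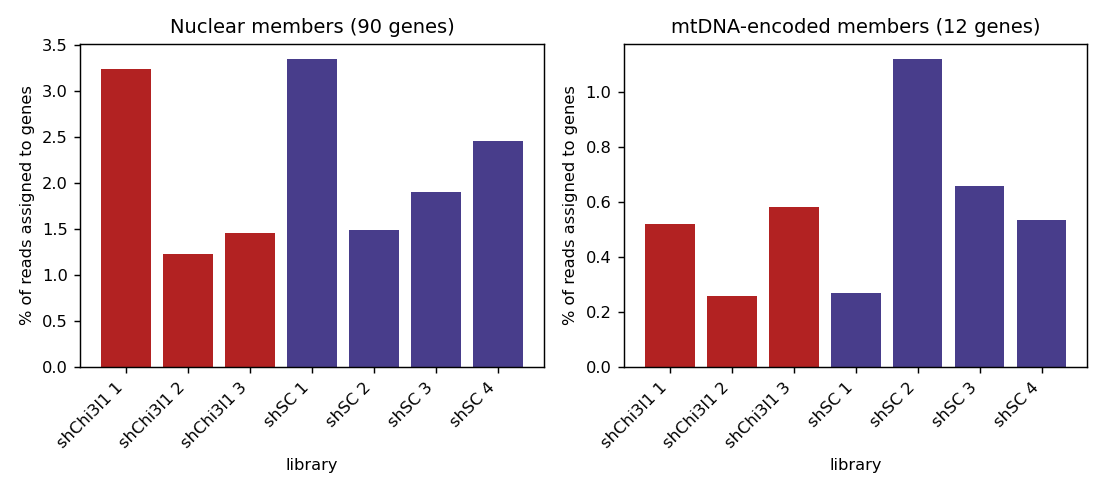
Share of reads assigned to genes (%, vertical axes starting at 0) that fell on the 90 nuclear genes (left) and the 12 mitochondrially encoded genes (right), with 1 bar per library, shChi3l1 in red and shSC in violet-blue. The nuclear share is highest in the 2 libraries numbered 1 (3.24% and 3.34%), whereas the mitochondrial share is highest in shSC 2 (1.12%).

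The balance of the genomes, the ratio of mitochondrially encoded to nuclear reads, does not depend on scaling between libraries. In shChi3l1 1 to 3 it was 0.160, 0.210 and 0.399. In shSC 1 to 4 it was 0.0808, 0.750, 0.347 and 0.218. Both the lowest and the highest ratio belonged to shSC, 9.28-fold apart, and all 3 shChi3l1 values lay between them. The ratio carries the same gaps in its mitochondrially encoded sum as the share above.

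Single nuclear genes repeated the order of their sum. Of the 90, 57 had their highest CPM in shChi3l1 1, where 21.6% of all genes tested did, and 26 in shSC 1, where 14% of all genes did. Together 83 of 90 were highest in a library numbered 1. The lowest value was in shChi3l1 2 for 49 of the 90, against 13.4% of all genes. The 7 exceptions, named here because their values stood out, were Ndufa10, Ndufs1, Sdha, Ndufa4, Cox4i2, Ndufa4l2 and the assembly factor Ndufaf7. Of the 12 mitochondrially encoded genes, 9 were highest in shSC 2, against 8.29% of all genes, 2 in shChi3l1 1 (mt-Nd3 and mt-Co3, both with copies on chromosome 1) and 1 in shChi3l1 3 (mt-Atp6, likewise).

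**Figure D2:**
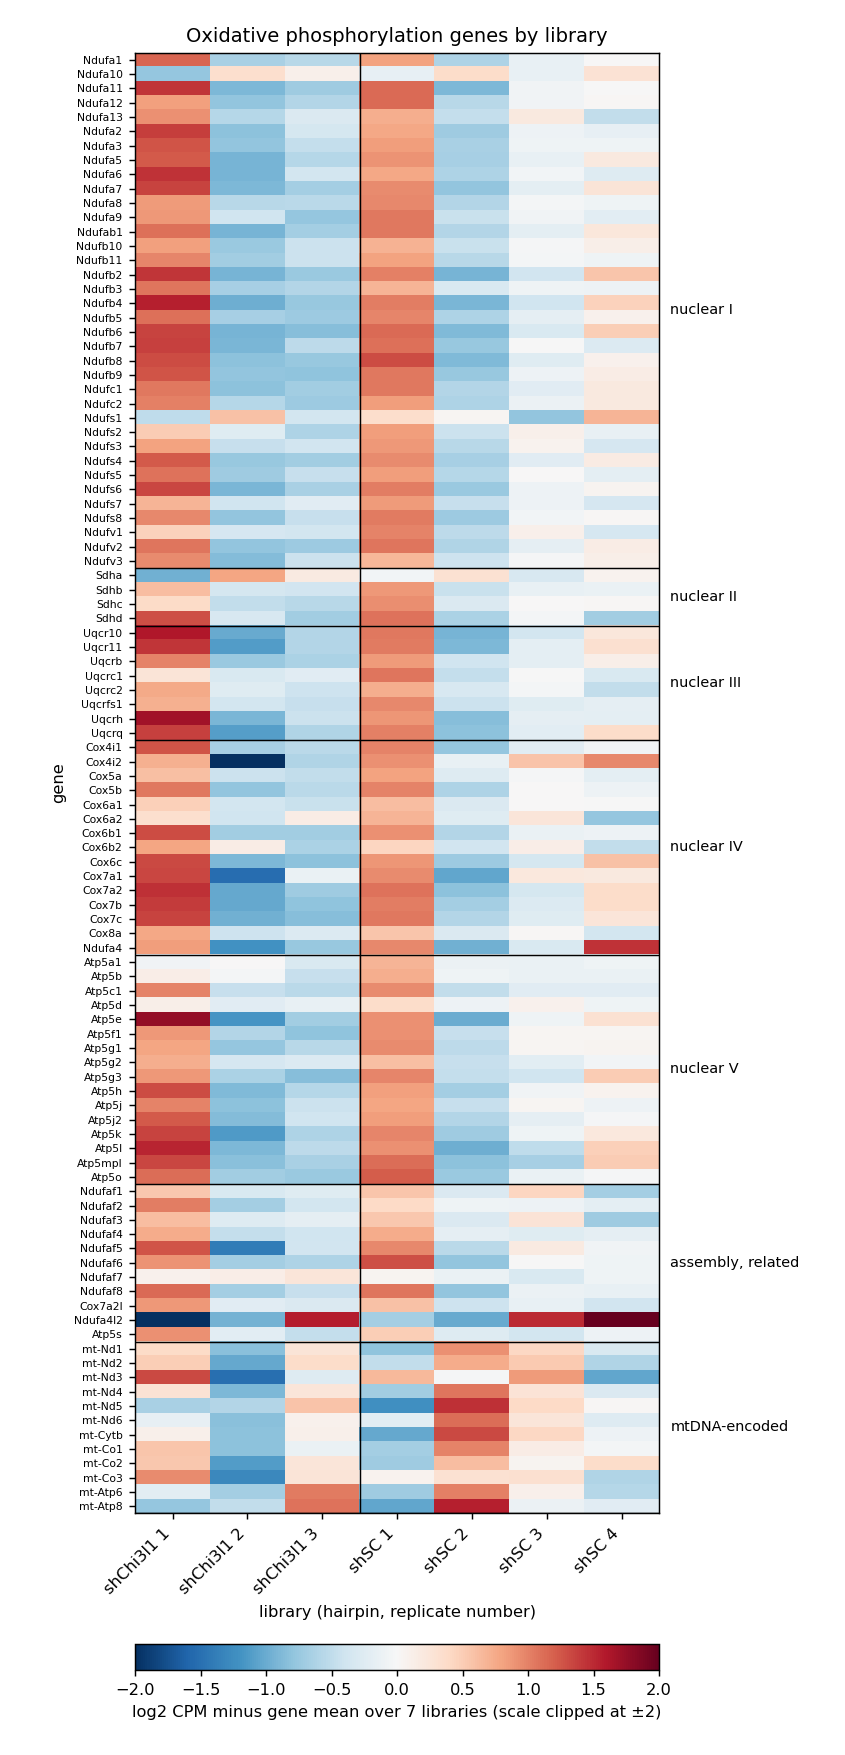
Each row is 1 of the 102 genes and each column 1 library, with colour giving log2 CPM minus the gene's mean over the 7 libraries (red above, blue below, clipped at ±2), and horizontal lines dividing complexes and classes. The columns of shChi3l1 1 and shSC 1 are red for nearly all nuclear genes, with 83 of 90 highest in one of them, and the mitochondrially encoded rows at the bottom are reddest in shSC 2.

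In all 5 complexes the 2 libraries numbered 1 had the highest sums of nuclear subunits, and the order of the other libraries differed between complexes. Complex I held 28.7% to 32.9% of the summed CPM of nuclear subunits in each library, complex III 10.8% to 12.7%, complex IV 19.9% to 23.3% and complex V 26.4% to 32.6%. Complex II, the only one without a mitochondrially encoded part, held between 4.72% and 8.14%, the highest in shChi3l1 2 where the sum over all nuclear subunits was lowest. The median nuclear subunit stood above its own mean by 1.06 on the log2 scale in shChi3l1 1 and 0.92 in shSC 1. In shChi3l1 2 that median was -0.76, in shChi3l1 3 -0.56 and in shSC 2 -0.58, while shSC 3 and shSC 4 lay near 0 at -0.11 and 0.03.

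Complex I is the largest of the complexes, and its nuclear subunits include the iron-sulphur and flavin proteins of the electron path as well as many small accessory proteins. The highest nuclear subunit per length was the accessory protein Ndufa1, with a mean of 774 CPM per kb of exon. Per length means here the deposited exon length, which covers all annotated exons of a gene. By coding length the highest or the lowest gene was another in complexes II to V. Its levels were 646 CPM in shChi3l1 1, 183 CPM in shChi3l1 2 and 196 CPM in shChi3l1 3. They were 506 CPM in shSC 1, 189 CPM in shSC 2, 259 CPM in shSC 3 and 290 CPM in shSC 4. The groups overlapped, with the 2 number-1 libraries on top, and the log2 fold change of shChi3l1 over shSC was 0.14 (SE 0.54, edgeR adjusted p = 0.9999).

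The lowest nuclear subunit per length was Ndufs1, the large iron-sulphur subunit of the electron path, at 3.75 CPM per kb, with the longest coding sequence of the nuclear genes at 2181 bases. Its levels were 20.0 CPM, 42.8 CPM and 22.2 CPM in shChi3l1 1 to 3. They were 36.4 CPM, 29.2 CPM, 16.5 CPM and 45.4 CPM in shSC 1 to 4. Here shChi3l1 1, the library highest for most nuclear genes, was the second lowest.

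The nuclear complex I subunits of smallest unadjusted p in each direction were Ndufa6 and Ndufa12, both accessory proteins. Ndufa6 had 486 CPM, 94.1 CPM and 139 CPM in shChi3l1 1 to 3 and 306 CPM, 117 CPM, 172 CPM and 149 CPM in shSC 1 to 4. Its log2 fold change was 0.37 (SE 0.59), which came with shChi3l1 1 alone above every shSC library. Ndufa12 had 174 CPM, 57.0 CPM and 65.4 CPM against 216 CPM, 67.2 CPM, 93.4 CPM and 100 CPM in the same order, a log2 fold change of -0.27 (SE 0.53). Of the 36 nuclear complex I subunits, 18 had positive and 18 negative log2 fold changes, with a median of -0.0045 and 0 called by edgeR.

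Complex II ties the chain to the tricarboxylic acid cycle, and its 4 genes did not follow a single order. The highest per length was the membrane anchor Sdhd, with 1051 CPM, 342 CPM and 264 CPM in shChi3l1 1 to 3 and 912 CPM, 278 CPM, 418 CPM and 264 CPM in shSC 1 to 4. The lowest was Sdhc, the other anchor, with 178 CPM, 95.9 CPM and 92.5 CPM against 258 CPM, 110 CPM, 136 CPM and 138 CPM. Both were highest in libraries numbered 1 and their groups overlapped.

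Sdha, the flavoprotein that oxidises succinate, ran the other way, and is described because its values stood out. It had its lowest value, 97.7 CPM, in shChi3l1 1 and its highest, 329 CPM, in shChi3l1 2, with 217 CPM in shChi3l1 3. In shSC 1 to 4 it had 185 CPM, 235 CPM, 153 CPM and 200 CPM, all between the 2 extremes of the other hairpin. The iron-sulphur partner Sdhb, whose promoter is printed above, kept the common order, with 570 CPM, 294 CPM and 286 CPM against 678 CPM, 274 CPM, 336 CPM and 340 CPM. The coding sequence of Sdha has 1992 bases and that of Sdhb 846.

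Complex III carries the core proteins Uqcrc1 and Uqcrc2, the Rieske iron-sulphur protein Uqcrfs1 and several small subunits. Uqcr10, a small subunit and the highest nuclear one per length at 660 CPM per kb, had 937 CPM, 154 CPM and 205 CPM in shChi3l1 1 to 3. In shSC 1 to 4 it had 642 CPM, 163 CPM, 239 CPM and 359 CPM. Uqcrc2, the lowest per length at 54.7 CPM per kb, spanned only 92.8 CPM in shSC 4 to 223 CPM in shChi3l1 1.

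Uqcrh, the hinge protein, had the largest positive log2 fold change of all 102 genes, 0.52 (SE 0.66, edgeR adjusted p = 0.9999). It had 767 CPM, 128 CPM and 178 CPM in shChi3l1 1 to 3 and 443 CPM, 132 CPM, 212 CPM and 211 CPM in shSC 1 to 4. That value came from shChi3l1 1: shChi3l1 2 lay below every shSC library and shChi3l1 3 below all but shSC 2, and with both number-1 libraries left out the log2 fold change was -0.31. Uqcrc1 had the smallest p among negative values of nuclear subunits in complex III, with a log2 fold change of -0.28 (SE 0.45), from 594 CPM, 401 CPM and 424 CPM against 1045 CPM, 358 CPM, 497 CPM and 402 CPM.

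Complex IV has the tissue-restricted isoforms, and the widely expressed partner was far above the restricted one in each pair. Per kb of exon, Cox4i1 had 682 CPM and its hypoxia-associated partner Cox4i2 had 4.50 CPM. Cox6a1 had 548 CPM per kb against 7.81 for the muscle form Cox6a2, and Cox7a2 had 455 CPM per kb against 8.02 for the muscle form Cox7a1. Cox6b1, the highest nuclear subunit of complex IV at 870 CPM per kb, stood against 1.57 for the testis form Cox6b2. Cox8a had 824 CPM per kb, and its muscle partner Cox8b was below the read limit. The restricted form took 0.181% to 1.24% of the Cox4i pair over the libraries, 0.820% to 2.07% of the Cox6a pair, 0.139% to 0.357% of the Cox6b pair and 1.24% to 2.59% of the Cox7a pair. In each of these 4 pairs the widely expressed partner was the higher in all 7 libraries.

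Cox4i2 had the smallest unadjusted p of the nuclear genes, with a log2 fold change of -0.91 (SE 0.69, edgeR adjusted p = 0.9999). Its levels were 4.68 CPM, 0.534 CPM and 1.87 CPM in shChi3l1 1 to 3 and 5.42 CPM, 2.57 CPM, 4.23 CPM and 5.54 CPM in shSC 1 to 4. The groups overlapped through shChi3l1 1. Ndufa4, now counted with complex IV, had 279 CPM, 67.4 CPM and 92.4 CPM against 305 CPM, 80.8 CPM, 127 CPM and 426 CPM, a log2 fold change of -0.68 (SE 0.68). Its relative Ndufa4l2 was near the limit of detection, from 0 reads in shChi3l1 1 to 1.37 CPM in shSC 4, and its log2 fold change of -1.25 had an SE of 1.37.

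All 3 of these genes, and Ndufs1 of complex I, were highest in shSC 4. For Cox4i2 the margin was narrow, 5.54 CPM against 5.42 CPM in shSC 1. The library shSC 4 had the highest sum of tumour and glial markers and shSC 1 the lowest. Of those 16 markers, 14 passed the filter of the fit; their sum was 104 to 116 CPM with shChi3l1 and 51.6 to 358 CPM with shSC, none was at 0 in every library, and Egfr was at 0 in 3, Olig2 in 1 and Aqp4 in 1. Haemoglobin and other erythroid markers summed to 2.55 to 32.8 CPM and 6.09 to 77.4 CPM, and were also highest in shSC 4. Fibroblast and pericyte markers, 5 of 10 in the fit with Col1a1 at 0 in 5 libraries, summed to 3.71 to 26.5 CPM and 3.47 to 32.4 CPM, highest again in shSC 4. Neuron markers were also highest in shSC 4, at 37.8 CPM. Larger sums peaked elsewhere. T-cell and NK-cell markers had 1429 CPM in shChi3l1 1 and 152 CPM in shSC 4. B-cell markers had 1874 CPM in shChi3l1 3 and 81.7 CPM in shSC 4, and dendritic-cell markers 1373 CPM in shSC 3 and 278 CPM in shSC 4. The part of any of these cells in the levels of Ndufa4, Cox4i2, Ndufa4l2 and Ndufs1 was not tested.

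Complex V includes the catalytic subunits Atp5a1 and Atp5b, the rotor subunits and a set of small membrane proteins. Atp5b, the highest per length at 312 CPM per kb, had 1398 CPM, 1242 CPM and 936 CPM in shChi3l1 1 to 3. In shSC 1 to 4 it had 2117 CPM, 1206 CPM, 1169 CPM and 1174 CPM. Apart from shSC 1 and shChi3l1 3 its values lay close together, and the log2 fold change was -0.25 (SE 0.38). Atp5a1, its partner in the catalytic head, had 576 CPM, 605 CPM and 490 CPM against 968 CPM, 556 CPM, 550 CPM and 568 CPM, with the same high library and a log2 fold change of -0.25 (SE 0.35).

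Atp5e, a small subunit of the central stalk with the shortest coding sequence at 156 bases, spread more than any other ATP synthase gene. It had 1341 CPM, 175 CPM and 244 CPM in shChi3l1 1 to 3 and 744 CPM, 200 CPM, 374 CPM and 489 CPM in shSC 1 to 4. Its highest value was 7.69 times its lowest, against 1.98 times for Atp5a1, and its log2 fold change was 0.38 (SE 0.73). Atp5l, the lowest nuclear subunit of complex V per length at 29.5 CPM per kb of exon, shares most of its sequence windows with other transcripts. It had 444 CPM, 83.2 CPM and 108 CPM against 293 CPM, 79.1 CPM, 110 CPM and 215 CPM. Per kb of coding sequence Atp5l had 616 CPM, above Atp5g2 at 221 CPM, and Atp5b had 832 CPM, below Atp5e at 3266 CPM. The inhibitor of the ATP synthase, Atp5if1, is listed as Atpif1 and is not matched by the symbol rule. It had 446 CPM, 136 CPM and 132 CPM against 363 CPM, 161 CPM, 181 CPM and 286 CPM, with a log2 fold change of -0.06 (SE 0.53).

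Among the mitochondrially encoded genes, levels per kb ranged from 1366 CPM for mt-Nd1, a membrane subunit of complex I, to 5.84 CPM for mt-Atp8, a small subunit of complex V. The catalytic subunit of complex IV, mt-Co1, had 1190 CPM per kb, and mt-Cytb, the single mitochondrially encoded protein of complex III, had 919 CPM per kb. The complex I subunits mt-Nd2, mt-Nd4 and mt-Nd5 had 575, 243 and 137 CPM per kb. mt-Nd6, the only one of these proteins encoded on the light strand, had 161 CPM per kb, with reads of both strands counted together. The 4 genes almost wholly shared with chromosome 1 had 37.4 CPM per kb for mt-Co3, 22.7 for mt-Atp6, 16.8 for mt-Co2 and 8.42 for mt-Nd3. These 4 and mt-Atp8, which overlaps mt-Atp6, were the 5 lowest of the 12.

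**Figure D3:**
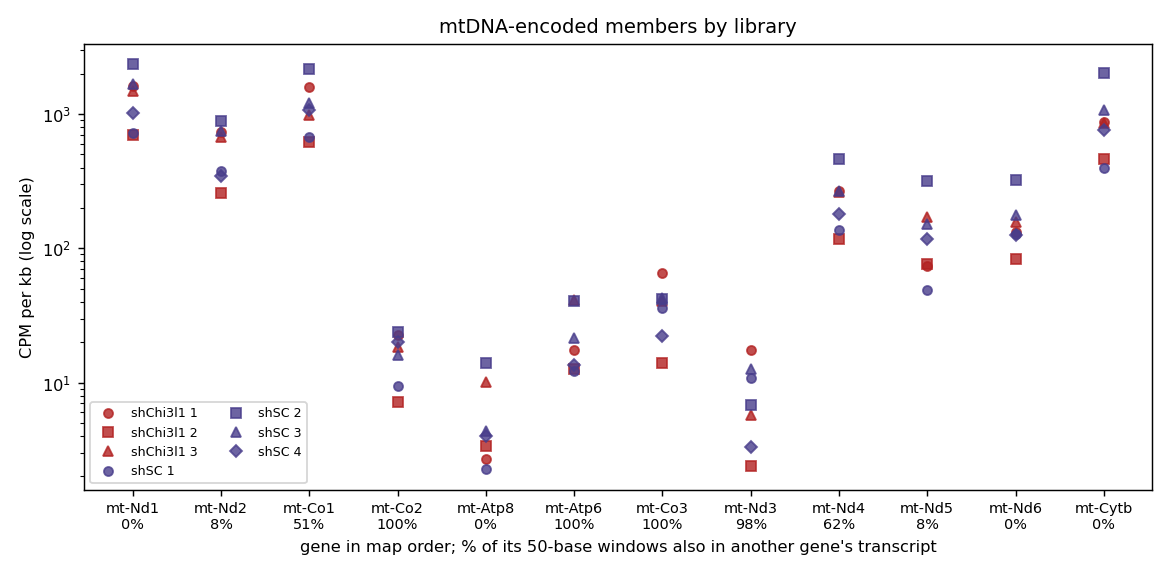
CPM per kb of exon (log axis) of the 12 mitochondrially encoded genes in the order of the mitochondrial map, with 1 point per library (red shChi3l1, violet-blue shSC, the shape giving the replicate number) and, under each name, the percentage of its windows of 50 bases that occur in another gene's transcript. The 4 genes with 98% to 100% shared windows lie at 8.42 to 37.4 CPM per kb on average, and shSC 2 is the highest library for 9 of the 12.

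Among the genes without shared windows, mt-Nd1 and mt-Cytb give the least ambiguous values. mt-Nd1 had 1557 CPM, 669.5 CPM and 1433 CPM in shChi3l1 1 to 3 and 687 CPM, 2250 CPM, 1590 CPM and 967 CPM in shSC 1 to 4. mt-Cytb had 993 CPM, 526 CPM and 988 CPM against 456 CPM, 2297 CPM, 1231 CPM and 865 CPM. Both had the same 2 lowest libraries, shChi3l1 2 and shSC 1, and the same highest, shSC 2, so that the control hairpin held both a high and a low library.

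mt-Nd6 had the smallest unadjusted p of all 102 genes, with a log2 fold change of -0.60 (SE 0.43, edgeR adjusted p = 0.9999). Its levels were 68.5 CPM, 43.4 CPM and 82.2 CPM in shChi3l1 1 to 3. They were 66.8 CPM, 168 CPM, 91.7 CPM and 64.7 CPM in shSC 1 to 4. The library shSC 2 stood above the rest, and the remaining values were mixed between hairpins. mt-Nd6 lies on the strand opposite to its neighbours mt-Nd5 and mt-Cytb. Because the libraries keep no strand, RNA of the opposite strand over these bases would be counted as mt-Nd6. mt-Nd5 and mt-Co1 showed the same high library, at 581 CPM against 89.6 to 313 CPM elsewhere and 3352 CPM against 953 to 2478 CPM elsewhere.

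The hairpin comparison called none of the 102 genes. With edgeR, 52 had positive and 50 negative log2 fold changes, the smallest unadjusted p was 0.198, 0 reached an unadjusted p of 0.05, and the smallest adjusted p was 0.9999. The background was 0% of 15448 genes called and 1.48% at that unadjusted threshold. DESeq2 also called 0 of the 102, beside 0.00651% of all genes, with 0 at an unadjusted p under 0.05, beside 2.28%. The median log2 fold change was 0.02 for the 90 nuclear genes (49 positive, 41 negative) and -0.19 for the 12 mitochondrially encoded genes (3 positive, 9 negative), beside 0.07 over all genes tested, of which 57.6% were positive. For nuclear subunits the medians were 0.03 in complex II, 0.08 in complex III, 0.02 in complex IV and 0.02 in complex V, each smaller than the smallest SE of a single gene in that complex. The 11 assembly and related genes had a median of 0.07. The 6 mitochondrially encoded genes with under 25% of shared windows, mt-Atp8 counted among them, all had negative values, with a median of -0.37. They stayed negative under each scaling run, but only 3 of them did without shChi3l1 2 and 2 without shSC 2.

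**Figure D4:**
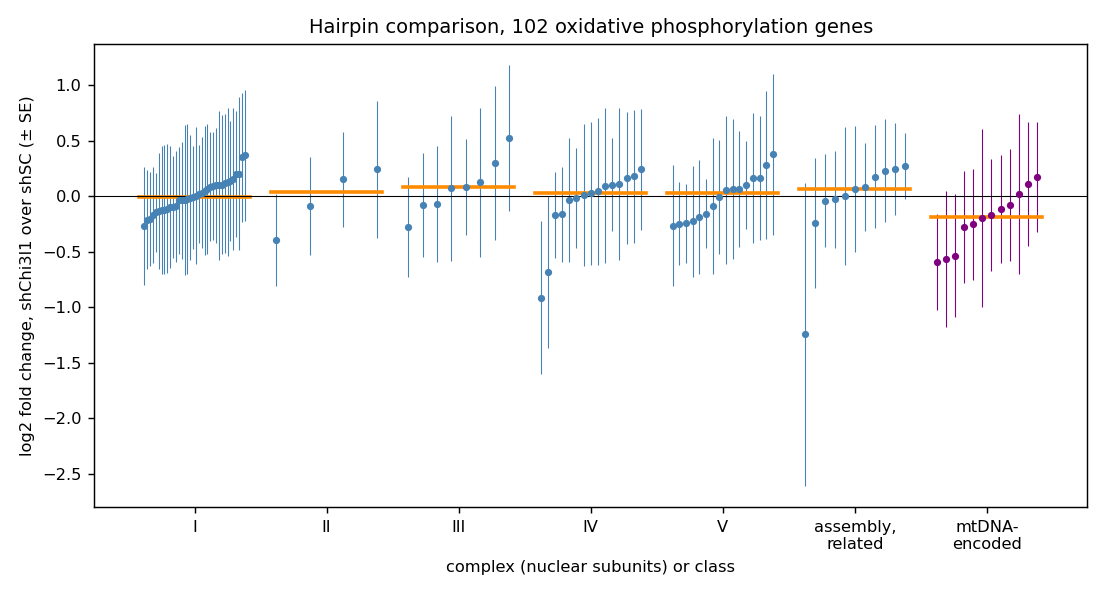
Log2 fold change of shChi3l1 over shSC (points) with its standard error (bars) for each of the 102 genes, ordered within each complex or class, with orange lines at the medians. Every median lies between -0.19 and 0.08, and the standard errors of single genes run from 0.29 to 1.37.

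How many genes were positive depended on the libraries and the scaling, so the balance of 52 to 50 carries no direction. Without shChi3l1 1 only 5 of the 102 were positive, beside 47.8% of all genes tested. Without shChi3l1 2 there were 82, beside 53.4% of all genes, without shChi3l1 3 there were 76, beside 55.8%, and without shSC 1 there were 83, beside 55.2%. Without shSC 2 there were 24, beside 57.0%, and without shSC 3 there were 22, beside 49.2%. Scaling by DESeq2 size factors gave 42 and 52.2% of all genes, and no filter on low counts gave 23 and 44.5% of all genes. With the replicate number as a block, over the 6 libraries numbered 1 to 3, there were 17, beside 52.4% of all genes. With both number-1 libraries left out there were 7, beside 47.9%, and the median of the nuclear genes was -0.46.

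Same-numbered pairs gave no common direction either. In pair 1, 58 of 90 nuclear genes and 12 of 12 mitochondrially encoded genes were higher with shChi3l1, with median log2 differences of 0.15 and 0.92. In pair 2, 31 nuclear and 0 mitochondrially encoded genes were higher, with medians of -0.09 and -1.79. In pair 3, 6 nuclear and 4 mitochondrially encoded genes were higher, with medians of -0.45 and -0.10. Of all 15448 genes tested, 8382, 7847 and 7708 were higher in pairs 1 to 3, with medians of 0.08, 0.01 and -0.002. Lower in all 3 pairs were 14 of the 90 nuclear genes, against 10.9% of all genes tested, and higher in all 3 was 1, against 12.2%.

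That 1 gene was Ndufaf7, a methyltransferase needed to assemble complex I, which is named because of this count. It had 18.1 CPM, 18.5 CPM and 20.2 CPM in shChi3l1 1 to 3 and 17.6 CPM, 15.4 CPM, 13.7 CPM and 16.1 CPM in shSC 1 to 4. It was the only one of the 102 genes whose groups did not overlap, where 2.49% of all genes tested did not, 1.24% with shChi3l1 higher. Its log2 fold change was 0.27 (SE 0.29, edgeR adjusted p = 0.9999). It was also the gene with the smallest spread over the libraries, an SD of log2 CPM of 0.19, beside 0.20 for Atp5d of the ATP synthase stalk and a median of 0.75 over the nuclear genes.

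Length accompanied the spread between libraries. The nuclear genes are short: their median coding length was 434 bases, beside 1326 bases over all genes tested with a coding sequence, and their median exon length as deposited was 1631 bases beside 3778. Across the 90 nuclear genes, Spearman's rho between coding length and the deviation from the gene's own mean was -0.60, 0.59 and 0.29 in shChi3l1 1 to 3. In shSC 1 to 4 it was -0.17, 0.53, 0.17 and -0.32. With the deposited exon length in place of coding length the values had the same sign except in shSC 3 and were smaller in size, from -0.28 in shChi3l1 1 to 0.29 in shChi3l1 2. These correlations run across genes of the same libraries, which are not independent replicates, and are descriptions.

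**Figure D5:**
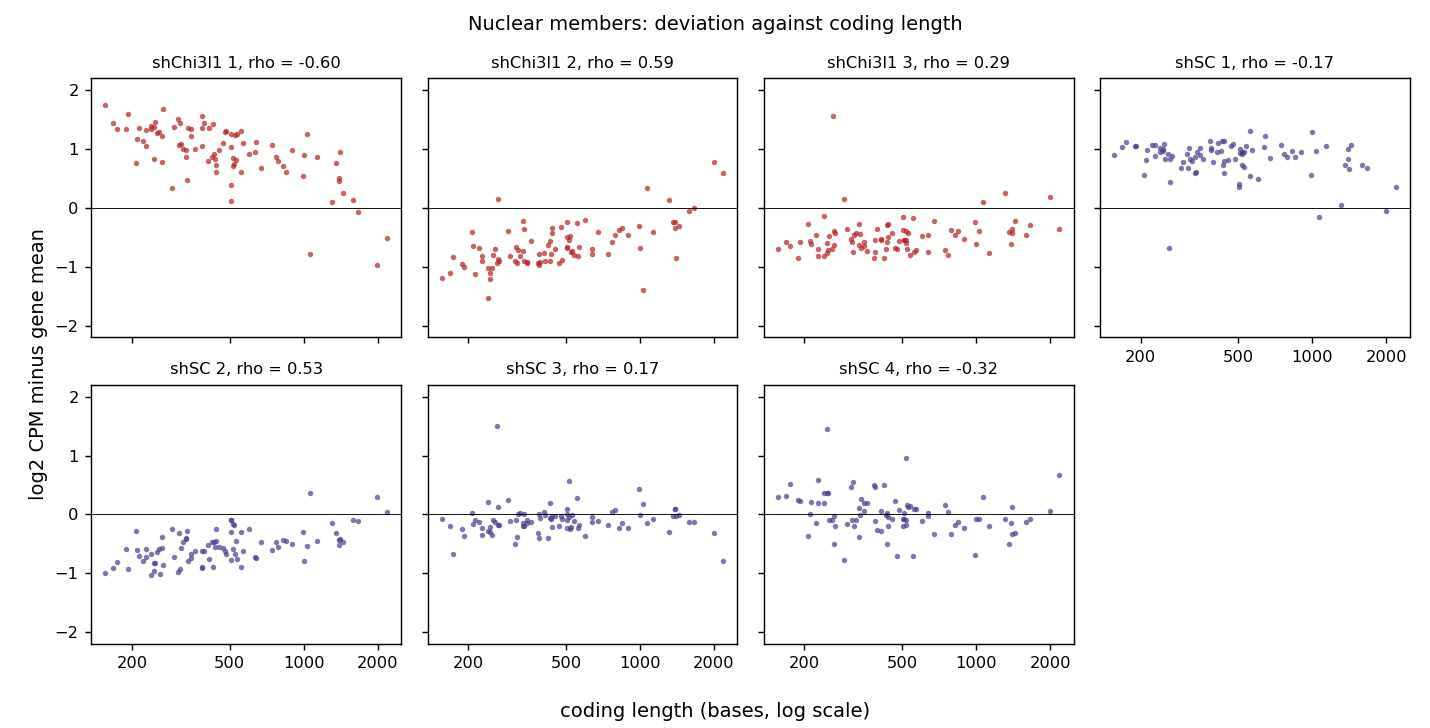
Log2 CPM minus the gene's mean over 7 libraries (vertical) against coding length in bases (log axis) for the 90 nuclear genes, with 1 panel per library and Spearman's rho above it. Short genes lie highest in shChi3l1 1 (rho -0.60) and lowest in shChi3l1 2 (rho 0.59), and in shSC 1 most genes lie above 0 at all lengths.

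In shChi3l1 1 the 52 nuclear genes with fewer than 500 coding bases stood above their means by a median of 1.24 on the log2 scale, and the 13 with more than 1000 bases by 0.26. In shSC 1 the same medians were 0.92 and 0.72, so that long and short genes stood apart less. In shChi3l1 2 they were -0.85 and -0.24, and in shSC 2 they were -0.64 and -0.31. Genes with longer coding sequences also varied less over the libraries: the SD of log2 CPM had a rho of -0.52 with coding length. The log2 fold change between hairpins had a rho of -0.41 with coding length across the 90 genes and of 0.08 across all 12726 genes with a coding sequence.

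Over all genes the relation with length had the same sign as in the nuclear genes in 5 libraries and the opposite sign in shSC 3 and shSC 4. Over these 12726 genes, rho with coding length was -0.51 in shChi3l1 1 and -0.47 in shSC 1, 0.52 in shChi3l1 2 and 0.43 in shSC 2. It was 0.31 in both shChi3l1 3 and shSC 4 and -0.17 in shSC 3. Genes with over 5000 exon bases took the lowest shares of reads in the number-1 libraries, 12.6% in shChi3l1 1 and 14.8% in shSC 1, and 16.8% to 20.7% in the others. With an offset for each library's trend with coding length, 15 of the 102 genes had positive log2 fold changes, beside 51.4% of all genes tested. With one for the deposited exon length there were 27, beside 51.0% of all genes. In both fits 0 of the 102 were called.

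The genes around the respiratory chain were grouped by role. Of 35 further assembly factors tested, 26 had positive and 9 negative log2 fold changes, and the smallest p belonged to Coa5, a complex IV assembly factor, at 0.43 (SE 0.33). Of 14 genes for electron carriers and their partners, 3 were positive and 11 negative, and the smallest p belonged to Pdss1, which makes the side chain of ubiquinone, at -0.84 (SE 0.45). Of 13 tricarboxylic acid cycle genes, 3 were positive and 10 negative, with the malate dehydrogenase Mdh2 at -0.25 (SE 0.31). edgeR called 0 genes in each of these lists.

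The 6 carriers and porins, which bring ADP and phosphate in and let ATP out, all had negative values, with Vdac1 at -0.23 (SE 0.30), but 2 of them did without shChi3l1 3 and 2 without shSC 1. Of 77 mitochondrial ribosomal protein genes, 27 were positive and 50 negative, with Mrps5 at -0.62 (SE 0.40). Of 21 genes for mitochondrial transcription and its regulators, 12 were positive and 9 negative. Again 0 were called by edgeR in each list, beside 0% of all genes.

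Tfb2m, the initiation factor of mitochondrial transcription, had the smallest p of these lists, with a log2 fold change of -0.999 (SE 0.41, edgeR adjusted p = 0.9999). It had 3.83 CPM, 3.29 CPM and 2.19 CPM in shChi3l1 1 to 3 and 7.22 CPM, 7.05 CPM, 5.83 CPM and 4.72 CPM in shSC 1 to 4. Its groups did not overlap, as was so for 1.25% of all genes tested with shChi3l1 lower. The mitochondrially encoded genes did not share its order: shSC 1 was the highest library for Tfb2m and the second lowest for their summed share of reads.

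Cytosolic ribosomal proteins, a set of abundant short genes with no part in respiration, ranked the libraries as the nuclear genes did. Their summed level was 81830 CPM, 23165 CPM and 28400 CPM in shChi3l1 1 to 3. In shSC 1 to 4 it was 68257 CPM, 23810 CPM, 33964 CPM and 39816 CPM. The order of the 7 libraries was the same as for the summed CPM of the 90 nuclear oxidative phosphorylation genes. In that sum shChi3l1 3 and shSC 2 were nearly level, at 13746 CPM and 13725 CPM. Mitochondrial ribosomal proteins had another order, with shSC 3 at 4548 CPM above shSC 4 at 4097 CPM, and shSC 2 at 3235 CPM above shChi3l1 3 at 3096 CPM.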

How the data were processed

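The deposited values were whole-number read counts per gene, 1 file per library. Per the submitters' processing notes, the tools were Trim Galore, HISAT2 and featureCounts, on mm10. Neither their versions and settings nor the annotation is given in the sources used here. The authors deposited these counts with exon coordinates and gene lengths. Of the 55385 gene IDs, 55144 matched GENCODE M21 without version and 241 did not. Groups and replicate numbers came from the sample titles.

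Genes passing filterByExpr (minimum count 10) were scaled by TMM and tested over all 7 libraries with the quasi-likelihood test of edgeR 4.0.16 in R 4.3.3, with hairpin as the only term and Benjamini-Hochberg adjustment over 15448 genes (threshold 0.05). CPM used these scaled totals, with 0.5 added to each count before taking logarithms. Standard errors were derived from the F statistic. Totals of 19169129 to 36502664 reads make counting error small beside the spread between libraries, except for genes near the read limit, and PCR copies are not independent molecules. Sums and medians over genes got no test. Coding lengths, windows of 50 bases and alignments were taken from GENCODE M21 and mm10 with Python 3.11.15.

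The labels call replicates 1 to 3 pairs in a figure. Deviations from group means correlated at 0.306, 0.26 and 0.188 within these pairs, all above 0.1, and the numbers were therefore treated as pairing in a blocked alternative, although shChi3l1 3 correlated best with shSC 2. Further alternatives were DESeq2 1.42.0 and its size factors, scaling without mitochondrial genes, no filter, length offsets, leaving out each library, and leaving out genes with overlaps. An offset for coding length, leaving out both number-1 libraries and leaving out genes with shared windows were chosen after seeing the data. Tested on simulated data with 14818 genes for this comparison, the edgeR fit called 0% of genes changed 2-fold, 22% of those changed 4-fold, 84% at 8-fold and 96% at 16-fold.

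The members, gene lists and naming rule were chosen with earlier results of these data known. The rule named all mitochondrially encoded genes, in each complex the nuclear genes highest and lowest per kb and of smallest p in each direction, restricted isoforms with their partners, the gene of smallest p of each pathway list, and Atp5if1. Genes named otherwise are marked as such in the text or belong to a marker list.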

Additional observations from a re-analysis of the deposited data

Results flagged for a closer look

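Of 114 values per gene and sum screened within the 4 shSC libraries, 10 had 1 library far from the other 3, and chance alone marks about 1 in 20 such groups. The distant library was shSC 1 in all 10, always on the high side. Its values were 2117 CPM for Atp5b, 968 CPM for Atp5a1 and 1031 CPM for Atp5c1, which form the catalytic head and stalk of the ATP synthase. In complex I they were 392 CPM for Ndufa9 and 161 CPM for Ndufb3, and for assembly factors 29.5 CPM for Ndufaf4 and 12.5 CPM for Ndufaf2, whose exons another gene overlaps. In the other complexes they were 678 CPM for Sdhb, 384 CPM for Uqcrfs1, the Rieske protein, and 429 CPM for Cox5a. These genes share a library, so the 10 are not independent. The same library had the highest sum over 20 proliferation genes, 1015 CPM, with shSC 4 next at 956 CPM and the other libraries at 523 to 727 CPM. The median deviation of these 20 genes from their own means was 0.66 on the log2 scale in both shSC 1 and shSC 4. All 20 had negative log2 fold changes of shChi3l1 over shSC, with a median of -0.67 and 0 called by edgeR. Over all genes tested, 57.6% were positive and 0% were called. The part of proliferation in the high values of shSC 1 was not tested.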

How the results depend on the processing

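No alternative called any of the 102 genes, and the replicate block changed no call. DESeq2's Wald test called 1 of all genes where edgeR called 0. The number of the 102 genes with positive log2 fold changes, 52 in the reported fit, was 23 with no filter and 17 with the replicate block. It was 27 with the offset for exon length, 16 with that offset and the replicate block, and 15 with the offset for coding length. Without both number-1 libraries it was 7. Over all genes, 44.5% to 57.6% were positive in these fits. Leaving out each library gave 5 to 83 of the 102, beside 47.8% to 57.8% of all genes. No filter moved the median of all genes by -0.15, and the cause of the other shifts was not tested. The median log2 fold change of the nuclear genes ranged from -0.81 (without shChi3l1 1) to 0.32 (without shSC 1) on leaving out each library and was -0.13 with the replicate block, where that of the mitochondrially encoded genes was -0.30. Of 109 members and named genes, 93 changed sign under at least 1 of 16 alternatives, and 16 kept it. Of 1740 single values, 123 moved by more than 1 SE. In a single simulated draw at this spread and number of libraries, 0% of 50 genes changed 2-fold were called, so changes of that size can go unseen. Genes in that draw were independent of each other, without the trends with length found in the real libraries.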

Other observations

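Regulators of genes for respiration did not share a single order of the libraries, and the values below were chosen after they were seen. Esrra, a nuclear receptor, had its highest values in the libraries numbered 1, as most nuclear oxidative phosphorylation genes did, with 33.5 CPM in shSC 1 and 32.2 CPM in shChi3l1 1 against at most 25.7 CPM elsewhere. Tfam, which packages and transcribes mitochondrial DNA, was highest in the same libraries, at 18.8 CPM and 17.4 CPM against 11.9 to 15.9 CPM elsewhere. The coactivator Ppargc1b had 0.510 CPM in shChi3l1 1 and 1.77 CPM in shSC 1, the libraries highest for the nuclear genes, and up to 5.85 CPM in shChi3l1 2. Nrf1, which encodes nuclear respiratory factor 1, was lowest in shChi3l1 1 at 14.0 CPM and highest in shChi3l1 3 at 29.1 CPM. Gabpa, the DNA-binding part of GABP, was likewise lowest in shChi3l1 1 at 5.02 CPM and reached 17.5 CPM in shSC 2. The coactivator Ppargc1a had too few reads to be tested and was at 0 in 3 libraries. Of the RNA-binding partners Lrpprc and Slirp, which stabilise mitochondrial mRNA together, Lrpprc had 2.59 CPM in shChi3l1 1 and 21.5 CPM in shChi3l1 2, and Slirp had 79.1 CPM and 17.0 CPM in the same libraries. In shSC 4 neither was low, with 21.0 CPM of Lrpprc and 30.8 CPM of Slirp. Over 12726 genes, rho with coding length was -0.51 in shChi3l1 1 and 0.52 in shChi3l1 2. The part of length in the values of these regulators was not tested.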
